A study of Homo sapiens with 6 samples.

Results

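The genes described here are 45 genes of the human lysosome, out of 21619 genes counted in each library. They were chosen by name for their known roles, with earlier results of these data known. They fall into 6 subgroups of 6 proteases, 11 enzymes that break down glycans, 6 lipid hydrolases or lipid-binding proteins, 7 membrane proteins, 11 genes of the proton pump and 4 regulators of the TFEB family and its control. The cells were MDA-MB-231, an established human triple-negative breast cancer line, engineered to carry an EGFP tag on L10a, one of the proteins of the ribosome's large subunit. All 3 groups had this tag and were starved in 0.2% serum for 24 h. The groups were untreated cells, cells given the chemokine CXCL12 at 30 ng/mL together with the growth factor IGF1 at 10 ng/mL (the lower dose), and cells given CXCL12 at 300 ng/mL together with IGF1 at 100 ng/mL (the higher dose). Treatment lasted 6 h. Each group had 2 libraries, lettered a and b, which the labels call biological replicates. The p-values rest on the spread between these libraries, with each gene's spread drawn toward that of genes of like abundance. They do not measure the gene's own spread alone. The tagged ribosomes were pulled down with an antibody to GFP and the mRNA that came with them was sequenced, a method known as translating ribosome affinity purification. Total RNA was not analysed here, so a change in the amount of an mRNA, in its ribosome association and in its recovery cannot be told apart, nor can fewer cells with an mRNA and less of it per cell. The factors were given together, so their separate contributions cannot be told apart either. The promoter that drives the tagged protein and whether the line is 1 clone are not stated in these sources.

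Lysosomes are acidic organelles in which hydrolases take apart proteins, glycans and lipids delivered by endocytosis and autophagy. A proton pump, the V-ATPase, acidifies them. Its V1 sector, in the cytosol, splits ATP, and its V0 sector, in the membrane, carries the protons. The transcription factors TFEB, TFE3 and MITF bind a short promoter element with the core CACGTG that is shared by many lysosomal genes. When growth factors and amino acids are plentiful, the kinase mTORC1 at the lysosome phosphorylates TFEB and TFE3 and keeps them in the cytoplasm, with the help of FLCN (folliculin). Starvation releases them to the nucleus.

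Promoter sequence was read from the RefSeq promoter table (build GRCh38.p14), which gives 250 bases before and 50 bases after each gene start and had an entry for 33 of the 45 genes. The core CACGTG, which reads the same on both strands, was found in 9 of these promoters (27.3%). It was found for 12.4% of the 9442 tested genes with an entry, and for 8.77% of all 27305 genes in the table. A gene was counted if any of its windows held the sequence. The longer form TCACGTG, or CACGTGA on the other strand, occurred in 8 of the 33 (24.2%), against 7.11% of tested genes and 4.49% of the table. With a T before and an A after the core, TCACGTGA, it occurred in 6 of the 33 (18.2%), against 2.26% of tested genes and 1.18% of the table. Of 86 other genes with an entry, from the lysosome lists described further below, 25 (29.1%) had the core. The form TCACGTG or CACGTGA occurred in 22 of these 86 (25.6%), and TCACGTGA in 10 (11.6%). The longer forms contain the core, so these counts overlap. A match describes the letters in this window only. The 9 genes with the core were CTSA, CTSD, GAA, NEU1, LAMP1, CD63, MCOLN1, CLN3 and ATP6V0D1. The stretches around the cores of 6 of them are printed below, as examples from the proteases, the glycan enzymes, the membrane proteins and the pump. Each is on the gene's own strand with the core in capitals.
CTSA, chr20:45891273-45891335, plus strand: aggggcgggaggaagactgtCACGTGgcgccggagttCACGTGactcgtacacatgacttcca
CTSD, chr11:1763949-1763994, minus strand: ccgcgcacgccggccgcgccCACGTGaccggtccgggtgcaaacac
GAA, chr17:80101485-80101575, plus strand: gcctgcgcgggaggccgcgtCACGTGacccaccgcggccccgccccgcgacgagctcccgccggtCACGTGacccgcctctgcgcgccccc
LAMP1, chr13:113297027-113297253, plus strand: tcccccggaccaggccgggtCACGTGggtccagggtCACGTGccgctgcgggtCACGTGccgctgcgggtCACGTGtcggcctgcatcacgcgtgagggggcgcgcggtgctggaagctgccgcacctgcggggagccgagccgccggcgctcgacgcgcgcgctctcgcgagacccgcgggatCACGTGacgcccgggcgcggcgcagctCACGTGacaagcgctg
MCOLN1, chr19:7522563-7522635, plus strand: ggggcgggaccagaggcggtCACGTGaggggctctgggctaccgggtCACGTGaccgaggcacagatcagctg
ATP6V0D1, chr16:67481191-67481236, minus strand: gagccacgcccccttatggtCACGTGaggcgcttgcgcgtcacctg
LAMP1 had the most cores, with 6 in its window. CTSA, GAA, MCOLN1 and CLN3 had 2 each.

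**Figure D1:**
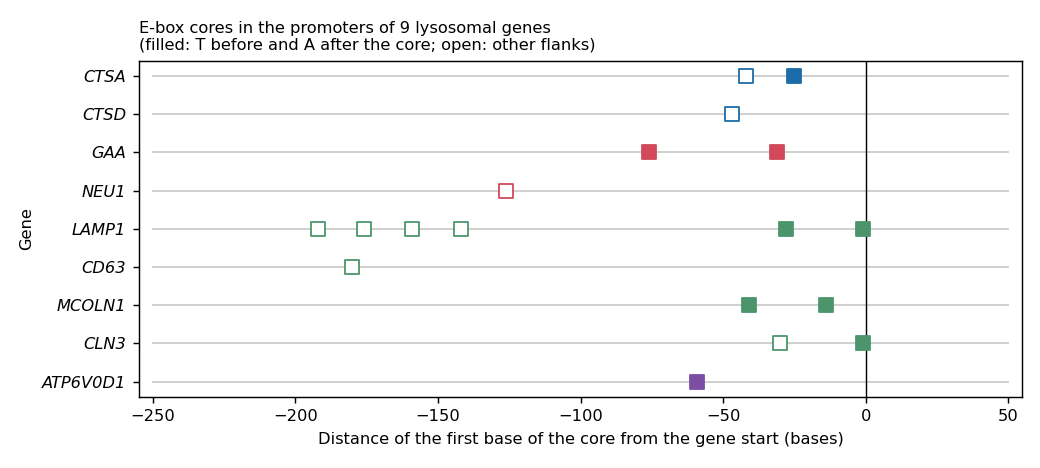
Position of each CACGTG core in the promoter windows of the 9 lysosomal genes that hold one, as the distance in bases of its first base from the RefSeq gene start (vertical line). Filled squares have T before and A after the core and open squares have other flanks, and the cores of LAMP1 lie in a group upstream and a pair at the start.

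Each library had 26255079 to 30280322 reads on genes. Values are given as CPM, counts scaled to library size, and 3 reads, the limit that a count of 0 allows, were worth 0.0991 to 0.114 CPM. This limit covers counting error alone, because reads carried no molecular identifiers. The markers of the line looked for at high level were high, with VIM at 2681 to 3749 CPM and CD44, KRT18, KRT8 and CAV1 at 439 to 941 CPM. All 5 fell at the higher dose against untreated cells, where 28.2% of all tested genes fell. Their log2 fold changes ran from −0.21 (CAV1) to −0.45 (VIM). The hormone receptor genes ESR1 and PGR had at most 0.177 CPM and CDH1 at most 0.450 CPM in any library. Also looked for at low level, ERBB2 had 54.3 to 77.3 CPM and EPCAM had 11.3 to 13.6 CPM. Of 5 leukocyte and macrophage markers, CD3E had no read in any library, PTPRC had at most 0.533 CPM and CSF1R at most 1.84 CPM. Summed over the 5, this list had 9.93 and 10.4 CPM at the higher dose, against 15.1 and 16.8 CPM in untreated libraries. CD14, the 1 marker of the list that fell, had 8.29 ± 0.488 CPM at the higher dose and 14.0 ± 1.51 CPM in untreated cells (SD, n = 2 each). Of 5 endothelial and fibroblast markers, CDH5 had no read and PDGFRB fell, and the sum was 11.6 and 12.1 CPM at the higher dose, against 15.1 and 14.5 CPM in untreated libraries. The part of these markers in the results was not tested. All 45 lysosomal genes passed the filter on low counts, as did 13548 of the 21619 genes.

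Most of the lysosomal genes were lower after treatment, and more of them at the higher dose. At the higher dose, 39 of the 45 fell against untreated cells, 3 rose and 3 did not pass the test (edgeR adjusted p under 0.05 over all 13548 genes tested). Among all tested genes, 28.2% fell and 28.1% rose in that comparison. Of 103 other tested genes, from the lysosome lists described further below, 49 fell and 22 rose there (47.6% and 21.4%). Without untreated a, 37 of the 45 fell and 1 rose. The median log2 fold change was −0.33 over the 45 genes and 0.00 over all tested genes. At the lower dose, 28 fell, 3 rose and 14 did not pass, with a median of −0.16, where 15.9% of all tested genes fell and 16.7% rose. Set directly against the lower dose, the higher dose had 35 lysosomal genes that fell, 1 that rose and 9 that did not pass, with a median of −0.17. In this comparison 17.6% of all tested genes fell and 16.4% rose. Both comparisons with untreated cells share the same 2 untreated libraries, and both comparisons of the higher dose share its 2 libraries.

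Seen library by library, the median log2 ratio of the 45 genes to their untreated mean was 0.01 and −0.01 in the untreated libraries, −0.19 and −0.13 in the lower dose libraries and −0.31 and −0.35 in the higher dose libraries. The libraries of the 3 groups did not overlap on this measure, and the median over all 13548 genes stayed within 0.01 of 0 in every library. The falls were mostly modest. Only FUCA1, TPP1, NPC1, GAA and PSAP fell by at least 1.5-fold at the higher dose, 5 of 45 genes, where 4.08% of all tested genes did so.

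**Figure D2:**
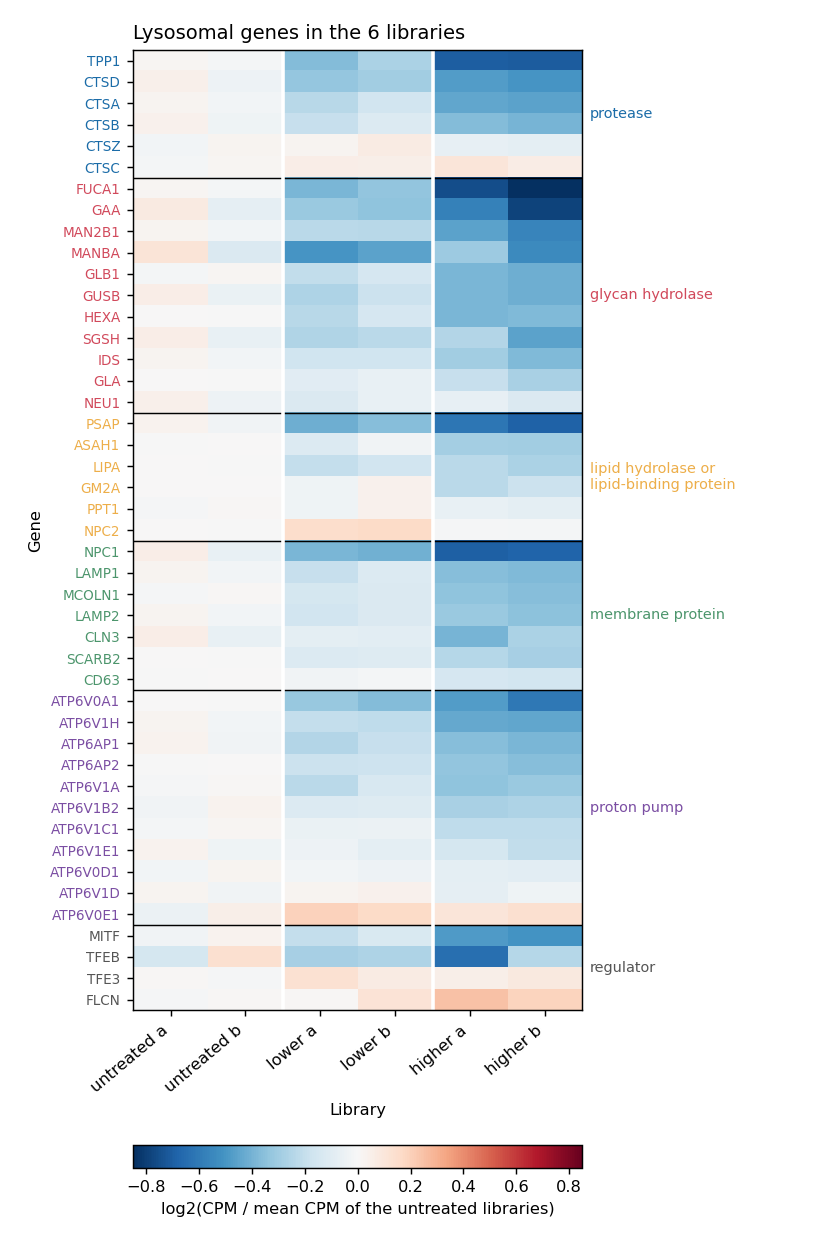
Log2 ratio of CPM in each of the 6 libraries (columns) to the mean of the untreated libraries, for the 45 lysosomal genes (rows) grouped by subgroup and sorted by their change at the higher dose. Blue marks lower and red higher values, and the blue deepens for most rows over untreated, lower dose and higher dose, with FLCN, ATP6V0E1, CTSC and TFE3 above 0 in all 4 treated libraries.

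Read counts do not compare levels between genes, so levels were set side by side as CPM per kilobase of transcript. In untreated cells the highest were CD63, with 711 CPM per kb, and CTSD, with 668. NPC2 had 345, CTSZ had 326, PSAP had 310.4 and ATP6V0E1 had 228. The lowest levels were those of TFEB, with 1.20 CPM per kb, and MANBA, with 1.87, followed by MITF with 6.48. The first 4 genes kept this order at the higher dose, at 641, 477, 343 and 309 CPM per kb. PSAP stood below ATP6V0E1 there, with 198 against 248 CPM per kb.

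The proteases other than CTSC fell at the higher dose, 5 of 6, and the median log2 fold change was −0.41. Of the same 6, 4 fell at the lower dose, with a median of −0.18. For this and each later subgroup, the background was 28.2% of all tested genes falling and 28.1% rising at the higher dose. At the lower dose it was 15.9% and 16.7%. TPP1 encodes tripeptidyl peptidase, which cuts tripeptides from the ends of proteins. It had 122 and 120.1 CPM in the untreated libraries, 94.0 and 100.5 CPM at the lower dose, and 74.6 and 74.2 CPM at the higher dose. The groups did not overlap and stood in the order of dose. TPP1 fell by 38.6% at the higher dose (log2 fold change −0.70 ± 0.04 SE, edgeR adjusted p = 1.54e-23), and the higher dose was also below the lower dose (−0.39 ± 0.04, edgeR adjusted p = 2.59e-12).

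CTSD, the aspartic protease cathepsin D, was the most abundant of the proteases per kilobase. It had 1462 and 1375 CPM in untreated libraries, 1129 and 1154 CPM at the lower dose, and 1022 and 1003 CPM at the higher dose, again without overlap and in the order of dose. Its log2 fold change was −0.49 ± 0.03 at the higher dose (edgeR adjusted p = 4.15e-22) and −0.31 ± 0.03 at the lower dose (edgeR adjusted p = 1.09e-13). CTSA, the carboxypeptidase that protects GLB1 and NEU1 in a shared complex, had 362 and 352 CPM in untreated libraries, 304 and 319 CPM at the lower dose, and 263 and 261 CPM at the higher dose. All values at each dose lay below both untreated values, and the log2 fold change at the higher dose was −0.45 ± 0.03 (edgeR adjusted p = 1.29e-19). Of the cysteine proteases, CTSB fell (−0.38 ± 0.03), and CTSZ, a carboxypeptidase, fell by little (−0.08 ± 0.03, edgeR adjusted p = 0.0124). The CTSZ call was lost without untreated b (edgeR adjusted p = 0.108) and without higher dose b (edgeR adjusted p = 0.0973).

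CTSC, the dipeptidyl peptidase that activates serine proteases of immune cells, went the other way. It had 307 and 314 CPM in untreated libraries, 322 and 320.4 CPM at the lower dose, and 333 and 325 CPM at the higher dose. The higher dose libraries lay above all others, but the rise was of 6.01% (0.08 ± 0.03, edgeR adjusted p = 0.00883). It was lost without untreated a (edgeR adjusted p = 0.0909), without higher dose a (edgeR adjusted p = 0.137) and after a correction for transcript length and GC content, where the log2 fold change was 0.03 (edgeR adjusted p = 0.422).

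The glycan-degrading enzymes fell without exception at the higher dose, 11 of 11, with a median log2 fold change of −0.40, and 10 of 11 fell at the lower dose, with a median of −0.22. FUCA1, the fucosidase that trims fucose from glycoproteins and glycolipids, fell the most of all 45 genes. It had 106 and 104 CPM in untreated libraries, 80.3 and 83.5 CPM at the lower dose, and 62.4 and 57.4 CPM at the higher dose. The groups did not overlap, and FUCA1 fell by 43.0% at the higher dose (−0.81 ± 0.04, edgeR adjusted p = 7.17e-25). It also fell at the lower dose (−0.36 ± 0.04) and between the doses (−0.45 ± 0.04, edgeR adjusted p = 2.08e-13).

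GAA, the acid glucosidase that degrades glycogen, had 39.6 and 35.6 CPM in untreated libraries, 30.2 and 29.7 CPM at the lower dose, and 25.2 and 21.8 CPM at the higher dose. Its groups did not overlap (−0.67 ± 0.06 at the higher dose, edgeR adjusted p = 2.39e-14). MAN2B1, a mannosidase, had 124 and 119 CPM in untreated libraries, 104 and 103 CPM at the lower dose, and 88.7 and 82.2 CPM at the higher dose. It fell at each dose without overlap (−0.51 ± 0.04 at the higher dose, edgeR adjusted p = 7.35e-18).

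Smaller falls at the higher dose ran through the other enzymes of this subgroup. GLB1, the galactosidase, fell by 0.40 on the log2 scale, as did GUSB, the glucuronidase. HEXA, a subunit of the hexosaminidase that degrades gangliosides, had −0.38 ± 0.04. Of the sulfatases that act on heparan sulfate, SGSH had −0.34 ± 0.06 and IDS −0.33 ± 0.04. GLA, which removes galactose from glycolipids, had −0.23 ± 0.04. The sialidase NEU1 moved least, with −0.09 ± 0.03 (edgeR adjusted p = 0.0165), a call lost with DESeq2 (adjusted p = 0.0883), without untreated a and without higher dose b (edgeR adjusted p = 0.228 and 0.192). MANBA, a mannosidase with 123 to 178 reads in a library, had 4.70 ± 0.534 CPM at the higher dose and 6.27 ± 0.708 CPM in untreated cells (SD, n = 2 each). Its fall (−0.41 ± 0.12, edgeR adjusted p = 0.00371) was lost with DESeq2 (adjusted p = 0.0661), without untreated a and without higher dose b (edgeR adjusted p = 0.0857 and 0.0997). GLA alone in this subgroup did not pass at the lower dose (−0.08 ± 0.04, edgeR adjusted p = 0.135). GUSB and IDS have near-identical pseudogene copies in the genome, which can take or lend reads.

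The lipid enzymes and lipid-binding proteins were uneven. At the higher dose 5 of 6 fell, with a median log2 fold change of −0.23, and at the lower dose 2 fell, 1 rose and 3 did not pass (median −0.04). PSAP, prosaposin, is the precursor of the saposins that present sphingolipids to hydrolases. It had 909 and 874 CPM in untreated libraries, 669.8 and 693 CPM at the lower dose, and 583 and 553 CPM at the higher dose. PSAP stood in the order of dose with no overlap. At the higher dose PSAP fell by 36.2% (−0.65 ± 0.03, edgeR adjusted p = 1.02e-26), and at the lower it fell by 23.6% (−0.39 ± 0.03, edgeR adjusted p = 2.18e-16).

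ASAH1, acid ceramidase, had 75.9 and 76.1 CPM in untreated libraries, 70.2 and 74.4 CPM at the lower dose, and 62.2 and 61.8 CPM at the higher dose. The lower dose libraries lay close under the untreated ones and did not pass the test (−0.07 ± 0.04, edgeR adjusted p = 0.154). The higher dose was clearly apart (−0.29 ± 0.04, edgeR adjusted p = 6.08e-09). LIPA, the acid lipase for cholesteryl esters, had 126 and 125 CPM in untreated libraries, 109 and 112 CPM at the lower dose, and 107 and 104 CPM at the higher dose. Most of its fall was present at the lower dose (−0.18 ± 0.03), and the doses did not differ by the test (−0.07 ± 0.03, edgeR adjusted p = 0.122). It fell by 0.25 on the log2 scale at the higher dose (edgeR adjusted p = 6.38e-09).

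GM2A, the activator protein for ganglioside breakdown, fell at the higher dose alone (−0.20 ± 0.04, edgeR adjusted p = 7.83e-06) and fell between the doses (−0.20 ± 0.04, edgeR adjusted p = 1.98e-05). The lower dose gave a log2 fold change of 0.00 ± 0.04. PPT1, which removes palmitate from proteins, had −0.08 ± 0.03 at the higher dose (edgeR adjusted p = 0.0259). That call was lost with DESeq2 (adjusted p = 0.083), after the length and GC correction (−0.02, edgeR adjusted p = 0.650) and without untreated b, higher dose a or higher dose b (edgeR adjusted p = 0.0881, 0.0572 and 0.159). PPT1 shares 23.4% of its exon bases with CAP1 on the opposite strand.

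NPC2 is the soluble protein that hands cholesterol to NPC1. It had 359 and 356 CPM in untreated libraries, 397 and 401 CPM at the lower dose, and 356 and 354 CPM at the higher dose. The lower dose libraries stood above all others, while higher dose and untreated libraries were side by side. NPC2 rose by 11.7% at the lower dose (0.16 ± 0.03, edgeR adjusted p = 4.67e-06) and was lower at the higher dose than at the lower dose (−0.17 ± 0.03, edgeR adjusted p = 1.17e-06). Against untreated cells the higher dose gave −0.01 ± 0.03 (edgeR adjusted p = 0.773). The length and GC correction changed these values: the rise at the lower dose became 0.07 (edgeR adjusted p = 0.0440) and the higher dose became −0.14 (edgeR adjusted p = 1.12e-06). With a term for the replicate letter as well, the rise at the lower dose was lost (edgeR adjusted p = 0.0513).

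All 7 membrane proteins fell at the higher dose, with a median log2 fold change of −0.33, and all 7 were lower at the higher than at the lower dose, with a median of −0.21. Fewer passed at the lower dose, where 5 of 7 fell, with a median of −0.14. NPC1, the membrane protein that exports cholesterol from the lysosome, had 122 and 113 CPM in untreated libraries, 89.9 and 88.6 CPM at the lower dose, and 72.8 and 73.3 CPM at the higher dose. Each step down with dose exceeded the spread between libraries. NPC1 fell by 37.8% at the higher dose (−0.68 ± 0.04, edgeR adjusted p = 1.89e-22), while its partner NPC2 did not pass the test there.

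LAMP1, a heavily glycosylated protein of the lysosomal membrane, had 267 and 258 CPM in untreated libraries, 229 and 242 CPM at the lower dose, and 205 and 203 CPM at the higher dose. It fell without overlap (−0.37 ± 0.03 at the higher dose, edgeR adjusted p = 1.21e-15). MCOLN1, a calcium channel of the lysosome, had 65.8 and 66.8 CPM in untreated libraries, 59.8 and 60.7 CPM at the lower dose, and 52.3 and 51.6 CPM at the higher dose. Its groups did not overlap either (−0.35 ± 0.04 at the higher dose, edgeR adjusted p = 1.44e-10).

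LAMP2, the relative of LAMP1 with a role in autophagy, had −0.33 ± 0.03 at the higher dose, and CLN3, whose loss causes a childhood neurodegenerative disease, had −0.33 ± 0.05. SCARB2, which carries glucocerebrosidase to the lysosome, had −0.26 ± 0.04. CD63, a tetraspanin found on lysosomes and exosomes, moved least, with −0.15 ± 0.03 (edgeR adjusted p = 1.93e-06). CD63 and CLN3 did not pass at the lower dose (−0.02 ± 0.03 and −0.08 ± 0.05). The lower dose calls of SCARB2 and MCOLN1 were lost with DESeq2 (adjusted p = 0.0752 and 0.0644) and without lower dose a (edgeR adjusted p = 0.0630 and 0.0523).

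**Figure D3:**
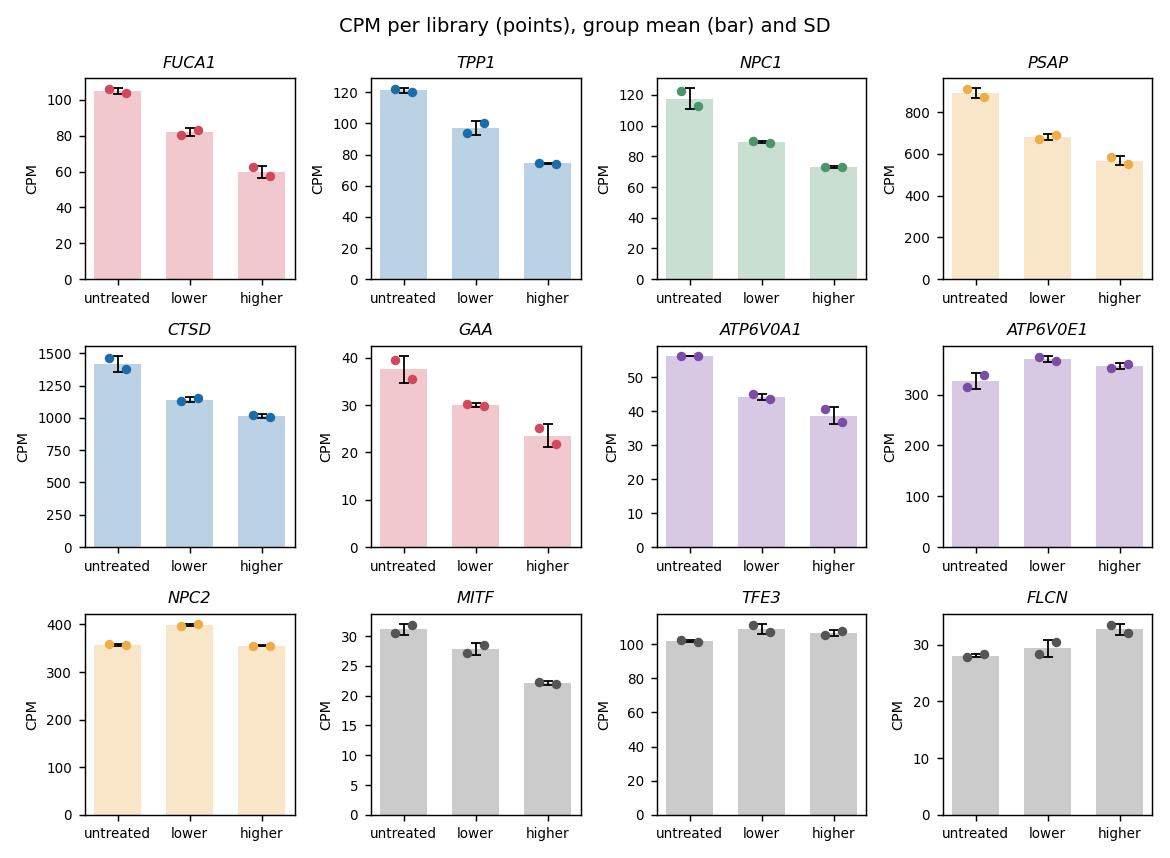
CPM of 12 lysosomal genes in untreated cells, the lower dose and the higher dose, with each library as a point, the group mean as a bar and the SD of 2 libraries as an error line. FUCA1, TPP1, NPC1, PSAP, CTSD, GAA, ATP6V0A1 and MITF step down with dose, NPC2 is highest at the lower dose, and FLCN is highest at the higher dose.

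The proton pump was mixed. Of its 11 genes, 9 fell, 1 rose and 1 did not pass at the higher dose, and a median log2 fold change of −0.27. The lower dose gave 6 falls, 1 rise and 4 genes that did not pass, with a median of −0.11. By sector, 5 of 6 V1 genes fell at the higher dose with a median of −0.24, 2 of 3 V0 genes with a median of −0.09, and both accessory genes with a median of −0.36. The differences between sectors were not tested.

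ATP6V0A1, an isoform of the large membrane subunit past which protons move, fell most. It had 56.3 and 56.3 CPM in untreated libraries, 45.0 and 43.7 CPM at the lower dose, and 40.6 and 36.9 CPM at the higher dose, with no overlap between groups (−0.54 ± 0.05 at the higher dose, edgeR adjusted p = 9.17e-15). ATP6V1H, a regulatory subunit of the cytosolic sector, had 41.0 and 39.6 CPM in untreated libraries, 35.1 and 34.7 CPM at the lower dose, and 29.9 and 29.7 CPM at the higher dose. The libraries of a group lay close together, the groups did not overlap, and the fall at the higher dose was −0.44 ± 0.05 (edgeR adjusted p = 1.61e-10). ATP6AP1, an accessory protein of the pump, had 195 and 187 CPM in untreated libraries, 160.4 and 167 CPM at the lower dose, and 149 and 146 CPM at the higher dose. It fell in the order of dose without overlap (−0.37 ± 0.03 at the higher dose, edgeR adjusted p = 3.34e-15).

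The other accessory gene, ATP6AP2, had −0.35 ± 0.03 at the higher dose. In the ATP-splitting sector, ATP6V1A, the catalytic subunit, had −0.33 ± 0.06 and its partner ATP6V1B2 had −0.27 ± 0.04. ATP6V1C1, a stalk subunit, had −0.21 ± 0.03, and ATP6V1E1, another stalk subunit, had −0.18 ± 0.04. ATP6V1D, of the rotor, had −0.06 ± 0.03 and did not pass (edgeR adjusted p = 0.163), though it did after the length and GC correction (−0.12, edgeR adjusted p = 0.00127). ATP6V0D1, which joins the rotor to the membrane sector, had −0.09 ± 0.04 (edgeR adjusted p = 0.0362). The ATP6V0D1 call was lost with DESeq2 (adjusted p = 0.152) and without untreated b, higher dose a or higher dose b (edgeR adjusted p = 0.228, 0.102 and 0.123).

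ATP6V0E1, a small membrane subunit, rose instead. It had 316 and 338 CPM in untreated libraries, 375 and 366 CPM at the lower dose, and 352 and 360.0 CPM at the higher dose. Both doses lay above both untreated libraries, and the untreated pair was the widest. The rise was 13.2% at the lower dose (0.18 ± 0.03, edgeR adjusted p = 2.12e-06) and 8.74% at the higher dose (0.12 ± 0.03, edgeR adjusted p = 0.000398). At the higher dose it was lost without untreated a (0.07, edgeR adjusted p = 0.0634) and after the length and GC correction (0.01, edgeR adjusted p = 0.854).

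Transcript length moved with the changes, and its part in them was not tested beyond that correction. Across 12956 tested genes with a known length, which are not independent replicates, the Spearman correlation of log2 fold change with transcript length was −0.25 at the higher dose and −0.23 at the lower. ATP6V0E1 has a transcript of 1433 nt and NPC2 one of 1035 nt, against a median of 2782 nt for the 45 genes and 3173 nt for all tested genes. After the correction, 40 of the 45 genes fell at the higher dose and 2, TFE3 and FLCN, rose, with a median log2 fold change of −0.29, where 25.9% of all tested genes fell and 29.0% rose. FUCA1 had −0.84, TPP1 −0.64, PSAP −0.60, GAA −0.58 and NPC1 −0.57 in the corrected fit, and the count at 1.5-fold or more was 3, where 3.1% of all tested genes reached it. ATP6V1A and PPT1 lost their calls between the doses (−0.11 and −0.04, edgeR adjusted p = 0.106 and 0.314).

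Pump subunits outside the 45 genes moved in both directions. Of 14 such genes from a list compiled from general knowledge, 12 were tested, and at the higher dose 2 fell and 5 rose (16.7% and 41.7%, against 28.2% and 28.1% of all tested genes), with a median log2 fold change of 0.10. ATP6V0A4, another isoform of the large membrane subunit, had 13.9 and 13.3 CPM in untreated libraries, 10.8 and 11.6 CPM at the lower dose, and 8.66 and 8.74 CPM at the higher dose. It fell without overlap (−0.64 ± 0.09, edgeR adjusted p = 6.75e-09). The isoform TCIRG1 also fell (−0.28 ± 0.04). Its doses overlapped, with 50.3 and 52.7 CPM at the lower dose and 51.1 and 53.6 CPM at the higher dose. By contrast, the isoform ATP6V0A2 rose (0.13 ± 0.05, edgeR adjusted p = 0.0224). That call was lost with DESeq2 (adjusted p = 0.143) and without untreated b or higher dose b. It was kept after the length and GC correction (0.23, edgeR adjusted p = 3.92e-05). The small V1 subunits ATP6V1G1 and ATP6V1F rose by 0.21 ± 0.03 and 0.18 ± 0.03, and in the corrected fit they were at 0.02 and 0.00 and did not pass. ATP6V0E2, the relative of ATP6V0E1, rose by 0.17 ± 0.03 and kept 0.14 after the correction. ATP6V1E2, at 0.913 to 1.75 CPM, rose by 0.74 ± 0.25 (edgeR adjusted p = 0.00916), which was lost with DESeq2 (adjusted p = 0.109) and without untreated a or higher dose b (edgeR adjusted p = 0.0642 and 0.0984). Over all 23 pump genes tested, 11 fell and 6 rose at the higher dose (47.8% and 26.1%). In the corrected fit 13 fell and 3 rose (56.5% and 13.0%, against 25.9% and 29.0% of all tested genes).

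**Figure D4:**
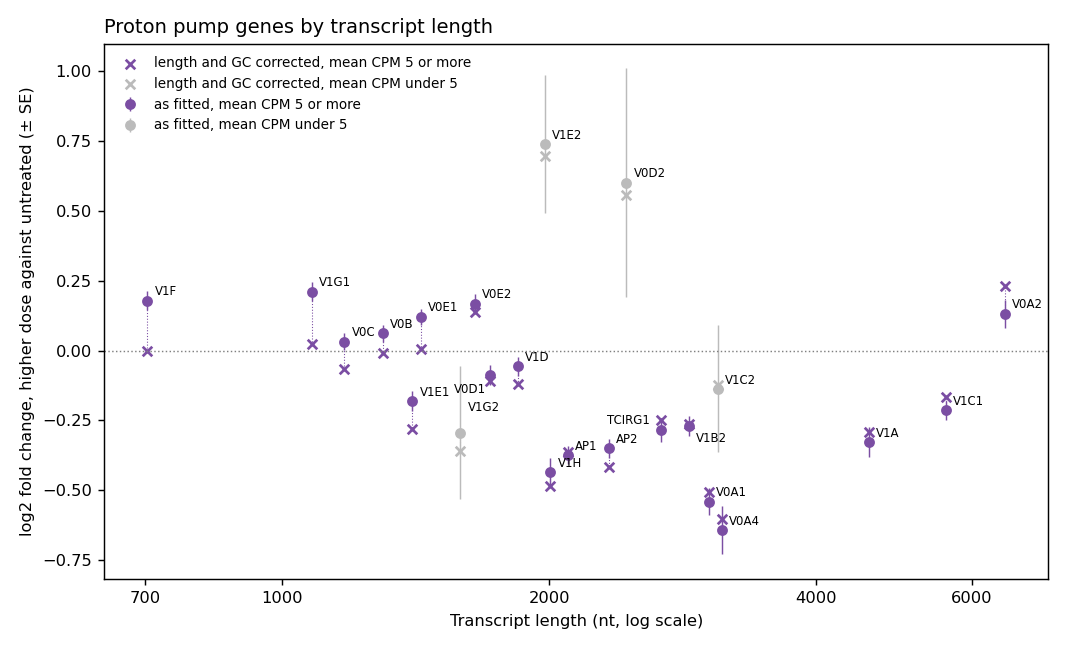
Log2 fold change at the higher dose against untreated cells for the 23 tested proton pump genes, plotted against transcript length in nt on a log scale. Circles with SE bars are the values as fitted, crosses are the values after the length and GC correction, grey marks genes under a mean of 5 CPM, and the names leave out the prefix ATP6. The short ATP6V1F, ATP6V1G1 and ATP6V0E1 come down to near 0 after the correction, while ATP6V0A1 and ATP6V0A4 remain the lowest.

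The regulators divided. At the higher dose 2 of the 4 fell, 1 rose and 1 did not pass, and their median log2 fold change was −0.18. The lower dose gave 1 fall, 1 rise and 2 genes that did not pass, with a median of −0.05. MITF, the family member best known from melanocytes, had 30.5 and 31.8 CPM in untreated libraries, 27.1 and 28.5 CPM at the lower dose, and 22.4 and 21.9 CPM at the higher dose. The groups did not overlap, and MITF fell at the higher dose (−0.49 ± 0.06, edgeR adjusted p = 1.48e-10). Its smaller fall at the lower dose (−0.17 ± 0.06, edgeR adjusted p = 0.0157) was lost with DESeq2 (adjusted p = 0.135) and without untreated b or lower dose a (edgeR adjusted p = 0.132 and 0.171).

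TFEB was close to the floor of what these libraries measure well, with 51 to 94 reads. It had 2.55 and 3.10 CPM in untreated libraries, 2.32 and 2.35 CPM at the lower dose, and 1.81 and 2.39 CPM at the higher dose. Both higher dose libraries lay below both untreated ones, but the spread between libraries was wide for this gene. The fall (−0.44 ± 0.18, edgeR adjusted p = 0.0348) was lost with DESeq2 (adjusted p = 0.212), without untreated b (−0.28, edgeR adjusted p = 0.325) and without higher dose a (−0.25, edgeR adjusted p = 0.340).

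TFE3 was the most abundant of the factors, with 29.8 CPM per kb in untreated cells, against 6.48 for MITF and 1.20 for TFEB. It had 102 and 101 CPM in untreated libraries, 111 and 107 CPM at the lower dose, and 105 and 108 CPM at the higher dose. Every treated library lay above both untreated ones, by little. TFE3 rose by 7.20% at the lower dose (0.10 ± 0.03, edgeR adjusted p = 0.0201) and did not pass at the higher dose (0.07 ± 0.03, edgeR adjusted p = 0.0922). The rise was lost with DESeq2 (adjusted p = 0.121) and without untreated a, untreated b or lower dose a (edgeR adjusted p = 0.0512, 0.0933 and 0.260). After the length and GC correction it was 0.16 at each dose and passed at both (edgeR adjusted p = 5.84e-05 at the lower and 4.16e-05 at the higher dose).

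FLCN had 27.9 and 28.3 CPM in untreated libraries, 28.3 and 30.4 CPM at the lower dose, and 33.5 and 32.1 CPM at the higher dose. The higher dose libraries were above the other 4, and the lower dose libraries reached from the untreated level to just over it. FLCN rose by 16.5% at the higher dose (0.22 ± 0.06, edgeR adjusted p = 0.000563). It was the single gene of the 45 that rose between the doses (0.16 ± 0.05, edgeR adjusted p = 0.0202). After the length and GC correction these rises were 0.31 and 0.20 (edgeR adjusted p = 4.3e-07 and 0.00195). The rise between the doses was lost with DESeq2 (adjusted p = 0.146), without lower dose a and without higher dose a (edgeR adjusted p = 0.250 and 0.179).

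**Figure D5:**
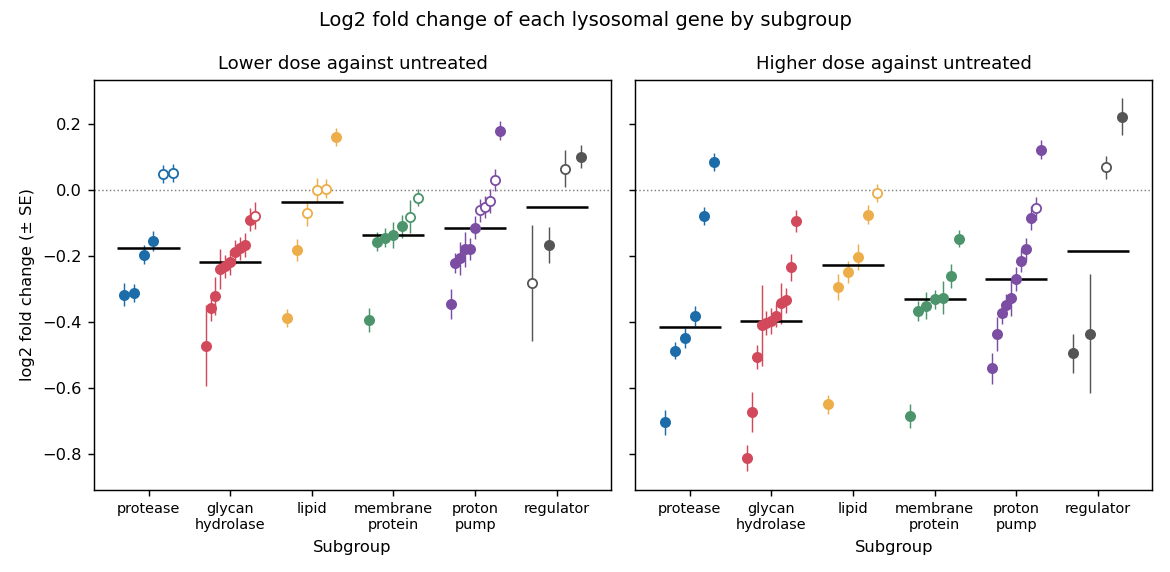
Log2 fold change with SE of each of the 45 lysosomal genes by subgroup, at the lower dose (left) and the higher dose (right), each against untreated cells. Filled points passed the edgeR test, open points did not, and black lines are subgroup medians, which lie between −0.41 for proteases and −0.18 for regulators at the higher dose.

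The promoter element and the size of the fall can be set side by side as a description. All 9 genes with the core CACGTG fell at the higher dose, with a median log2 fold change of −0.35 and a range of −0.67 (GAA) to −0.09 (ATP6V0D1). Of the 24 genes with a promoter entry and no core, 19 fell, with a median of −0.30 and a range of −0.81 (FUCA1) to 0.22 (FLCN). Of the 12 genes with no entry (HEXA, LAMP2, MANBA, PSAP, ATP6V1H, CTSB, ATP6V1C1, SGSH, ATP6V0E1, ASAH1, ATP6V1B2 and ATP6V1A), 11 fell. LAMP1, with 6 cores, fell by 0.37 on the log2 scale, and CD63, with 1, fell by 0.15. FUCA1, TPP1 and NPC1, which fell most, had no core in this window. GAA, with 2 cores, came next and lay close to NPC1 (−0.67 ± 0.06 against −0.68 ± 0.04). In the fit corrected for length and GC content, GAA had −0.58 and NPC1 had −0.57.

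Other genes of the lysosome, from lists compiled from general knowledge, followed the hydrolases in part. Of 36 other hydrolases, 34 were tested, and 22 fell and 2 rose at the higher dose, with a median log2 fold change of −0.31. These were 64.7% and 5.88% of those tested, against 28.2% and 28.1% of all tested genes. Among these, HGSNAT, which acetylates heparan sulfate for its breakdown, fell by 0.54 on the log2 scale. The hyaluronidase gene HYAL2 rose by 0.24 ± 0.04. Of 29 other membrane proteins, 14 fell and 5 rose (48.3% and 17.2%, beside the same shares of all tested genes), with a median of −0.13. The nucleoside transporter SLC29A3 and the gamma-secretase subunit NCSTN fell most there (−0.55 ± 0.10 and −0.54 ± 0.03), while the amino acid transporters SLC66A1 and SLC36A1 rose most (0.27 ± 0.06 and 0.19 ± 0.06). The SLC36A1 call was lost with DESeq2 (adjusted p = 0.0641) and without untreated a or higher dose b (edgeR adjusted p = 0.0833 and 0.0620). In the fit corrected for length and GC content, SLC36A1 rose by 0.32 (edgeR adjusted p = 1.33e-06). With DESeq2, 1 of the other membrane proteins rose. Leaving out untreated a, higher dose a or higher dose b left 2, 3 and 1 that rose.

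Genes that deliver or activate hydrolases on their way to the lysosome fell in 6 of 8 cases at the higher dose and rose in 1. These shares were 75.0% and 12.5%, against 28.2% and 28.1% of all tested genes, and the median log2 fold change was −0.37. IGF2R, the large mannose 6-phosphate receptor, which also binds IGF2, had 144 and 142 CPM in untreated libraries, 103 and 106 CPM at the lower dose, and 87.0 and 82.5 CPM at the higher dose. It fell without overlap (−0.75 ± 0.03, edgeR adjusted p = 1.51e-25). The sorting receptor SORL1 fell too (−0.61 ± 0.13, edgeR adjusted p = 7.31e-05). The small mannose 6-phosphate receptor M6PR had 97.6 and 95.0 CPM at the higher dose, above 88.0 and 84.4 CPM in untreated libraries, and rose (0.16 ± 0.04, edgeR adjusted p = 0.000123). The opposite moves of the receptors remained after the length and GC correction (−0.59 for IGF2R and 0.17 for M6PR).

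Of 21 genes listed for nutrient sensing at the lysosome, 20 were tested. At the higher dose 5 fell and 9 rose, with a median log2 fold change of 0.10. The share that fell was near the 28.2% of all tested genes, and 45.0% rose, against 28.1%. TSC2 and TSC1, whose complex restrains mTORC1, fell (−0.41 ± 0.05 and −0.35 ± 0.06). NPRL3, of a complex that restrains the Rag GTPases, rose (0.30 ± 0.05). The partners of FLCN moved in opposite directions: FNIP2 rose (0.27 ± 0.08), and FNIP1 fell (−0.34 ± 0.07, edgeR adjusted p = 6.06e-05). The FNIP2 call was lost with DESeq2 (adjusted p = 0.0776) and without untreated b or higher dose a (edgeR adjusted p = 0.131 and 0.0924). In the fit corrected for length and GC content, FNIP2 rose by 0.37 (edgeR adjusted p = 7.82e-05). Of the 20 genes, 5 fell and 6 rose in that fit, with a median of 0.01. These shares were near those of all tested genes (25.9% and 29.0%).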

How the data were processed

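The authors deposited counts, whole numbers of reads for each gene symbol, in a file per library. Per the submitters' processing notes, CASAVA 1.8.1, TopHat 1.4.0, HTSeq and build hg19 were used. The annotation, counting mode and use of strand are not stated in these sources, so reads of overlapping or antisense genes cannot be told apart. Among overlaps with genes found by symbol in the counts, this touches CTSA (17.7% of exon bases shared with NEURL2 on the opposite strand) and PPT1. To a lesser extent it touches SGSH, LIPA, NPC2, CLN3, ATP6V1D, GLB1 and MCOLN1. Other annotated genes overlap CTSD (15.8%), HEXA (10.1%), CD63 (9.0%) and NPC1 (5.98%, with RMC1) on the opposite strand, among others. On the same strand such overlaps reach 41.7% for CTSD and 25.2% for CLN3.

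The 5 summary lines of each file (9.40% to 10.2% of reads) were left out. Libraries of a group differed by more than counting noise (chi-square per degree of freedom 1.98 untreated, 1.69 lower dose, 1.52 higher dose) and were each counted as a sample. All 6 libraries entered 1 edgeR 4.0.16 fit in R 4.3.3 (TMM factors 0.997 to 1.003, filterByExpr by group, robust quasi-likelihood F test, two-sided, 3 residual degrees of freedom), with Benjamini-Hochberg adjustment over 13548 genes and a threshold of 0.05. Changes are relative to the other genes. The biological coefficient of variation was 1.79%, so small changes pass. The SE was derived from the log2 fold change and its F statistic (size of the change divided by the root of F).

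Transcript length and GC content came from GENCODE release 29 and entered an alternative fit as offsets smoothed with mgcv 1.9.3. Other alternatives were DESeq2 1.42.0, its size factors in edgeR, no filter on low counts, the replicate letter as a block, and leaving out each library. The scripts were tested on simulated counts. The 45 genes and all lists were chosen with earlier results of these data known, so no test over a list is given. Every one of the 45 genes is named, with values per library for the 3 largest called changes of each subgroup at the higher dose, each regulator and each gene that rose. From other lists up to 2 falls and 2 rises are named, and ATP6V1F, ATP6V0E2, ATP6V0A2 and FNIP1 were added after their values were seen. Most genes of the other lists, and some markers, are counted here without being named.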

Additional observations from a re-analysis of the deposited data

How the results depend on the processing

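The counts of lysosomal genes that fell stayed within 1.5 times of the reported ones under all 12 alternatives. Leaving out 1 library at a time, 34 to 39 fell at the higher dose, 23 to 28 fell at the lower, and 29 to 35 fell from one dose to the other. DESeq2 gave 34, 21 and 31. The count that rose at the higher dose was 1 to 3 when a library was left out, and 1 without untreated a. The count that rose between the doses was 0 with DESeq2, 0 without lower dose a and 0 without higher dose a, and otherwise 1. The cause was not tested.

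By subgroup, DESeq2 gave 3 membrane proteins that fell at the lower dose, and for the regulators 0 that fell and 0 that rose at the lower dose and 1 that fell at the higher dose. Leaving out a library, the membrane proteins that fell at the lower dose were 3 to 6, the regulators 0 to 1 falling and 0 to 1 rising at the lower dose and 1 to 2 falling at the higher, and the proteases and pump genes that rose at the higher dose 0 to 1 each. The length and GC correction, with or without the replicate block, gave 0 proteases, 0 pump genes and 2 regulators that rose at the higher dose, and with the block 0 lipid genes that rose at the lower. Of the other lists at the higher dose, DESeq2 gave 1 hydrolase, 1 membrane protein and 3 pump subunits that rose. Leaving out a library gave 1 to 3, 1 to 5 and 3 to 6, and the correction gave 3 pump subunits, with ATP6V1F at −0.0006, or −0.0004 with the block.

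Of the 45 genes, single ones turned direction only where neither value passed. For the lower dose, GM2A had 0.0002 with the replicate block, 0.026 with the length and GC correction, 0.0266 with both, and −0.0367 to 0.0334 when a library was left out. PPT1 had −0.0005 with no filter on low counts, and −0.0336 to 0.0369 when a library was left out. ATP6V1D had −0.0205 with the correction, with or without the replicate block. Between the doses, leaving out a library gave NEU1 −0.0338 to 0.0259, MANBA −0.0597 to 0.173 and TFEB −0.368 to 0.0307. Of 1618 values of the 45 genes under an alternative, over the 3 comparisons, 76 lost their call and 18 gained one. Direction and call were kept under all 12 alternatives by 27 of 45 genes for the lower dose (TFEB had no adjusted p with DESeq2), 34 for the higher dose and 33 for the doses against each other.

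Same-lettered libraries did not deviate together (correlations −0.045, 0.003 and −0.035), so no effect of a shared letter was visible in these counts. The labels do not say whether a letter marks a shared culture or day, and these correlations cannot decide it. With the letter as a replicate block, 39 fell and 3 rose at the higher dose, 28 and 3 at the lower, and 34 and 1 in the comparison of the doses, where ATP6V1D lost its call (−0.09, edgeR adjusted p = 0.0537).

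With 2 libraries a group, leaving 1 out assumes that the lone library varies like the others. Depth limits TFEB and MANBA most.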
